A study of Homo sapiens with 6 samples.

Results

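PIAS3, placed in A549 cells on a plasmid, was compared with control cells on 4 Affymetrix arrays, 2 per group, across all 22215 probe sets that are not array controls. These arrays are 4 of the 6 in the series, chosen by their titles (PIAS3 replicates 1 and 2, EGF-stimulated control replicates 1 and 2). A549 is an established human lung adenocarcinoma line, described in the labels as alveolar basal epithelial. The PIAS3 cells were transfected with the pCMV5 vector carrying human PIAS3, and the control cells were not transfected. Per the design text, cells of every group were kept without serum and then given EGF, whereas the titles name EGF for the control arrays only. Seeding lasted 12 h in medium with 10% FBS, and the cells were harvested for RNA 48 h after they were transfected, with no time given for the control. The other 2 arrays, from cells given an siRNA against STAT3, entered the fit and are shown beside the members. They share the control arrays with the PIAS3 comparison. The study asked which genes related to apoptosis respond to PIAS3.

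PIAS3 belongs to the protein inhibitor of activated STAT family. It binds STAT3 and hinders its binding to DNA, and it acts as an E3 ligase that helps attach the small protein SUMO to transcription factors. STAT3 carries signals of the interleukin-6 family and of growth factor receptors such as the EGF receptor to the nucleus, where it drives survival, acute phase and cytokine feedback genes. Interferon signals reach their target genes through the interferon-stimulated response element (ISRE), to which IRF9 binds.

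Values are deposited log2 levels, so 1 unit is a 2-fold difference. Each of 11963 genes was represented by 1 probe set, the one brightest on average across the 6 arrays. A gene was placed among those seen in both arrays when each PIAS3 array lay at least 2-fold beyond the control mean and beyond both controls. It was placed under replicate 1 alone, or replicate 2 alone, when that array met this rule and the other lay within 0.5 log2 of the control mean. Of the 11963 genes, 63 (0.527%) were higher in both arrays and 50 (0.418%) were lower in both. A further 89 (0.744%) were higher and 36 (0.301%) lower in replicate 1 alone. In replicate 2 alone 7 (0.0585%) were higher and 2 (0.0167%) lower. For 135 genes one array was past 2-fold and the other lay between these limits, with replicate 1 the array past the limit in 113 of them. No gene was past 2-fold in opposite directions in the 2 arrays among the 11963 genes.

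**Figure D1:**
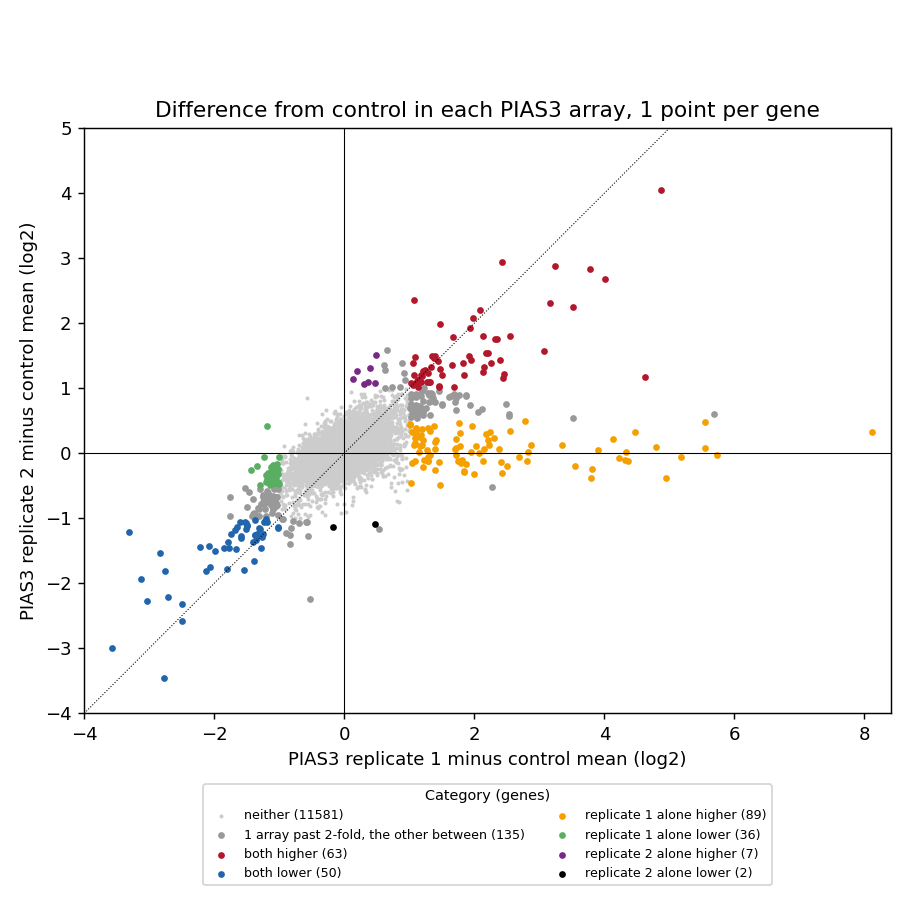
Each point is 1 of 11963 genes, placed by its level in PIAS3 replicate 1 (horizontal) and replicate 2 (vertical) minus the control mean, in log2 units, and coloured by category, with a dotted line where the arrays are equal. The 89 genes higher in replicate 1 alone stretch along the horizontal axis, while the 63 and 50 genes past 2-fold in both arrays lie in the upper right and lower left.

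Promoters of genes from these categories are shown because they carry motifs whose share is compared between the categories below. They are RefSeq promoters on GRCh38.p14, read 5′ to 3′ along the gene, with capitals marking the motif match on either strand. IFIT1, ISG15, IFI27 and IFI44 were high in replicate 1 alone and carry the ISRE letters GAAANNGAAA, which ISG15 holds as 2 overlapping matches. FGA, a fibrinogen chain, and GPX2, an antioxidant enzyme, were high in both arrays. FGA carries the STAT site letters TTCNNNGAA and GPX2 the antioxidant response element core TGACNNNGC. The windows end at the base before the gene start, except that of FGA, which lies farther upstream.
IFIT1 chr10:89392473-89392622 (+ strand): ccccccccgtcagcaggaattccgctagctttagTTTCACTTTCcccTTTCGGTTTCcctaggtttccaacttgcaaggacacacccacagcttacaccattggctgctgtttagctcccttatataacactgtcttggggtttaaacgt
ISG15 chr1:1013347-1013496 (+ strand): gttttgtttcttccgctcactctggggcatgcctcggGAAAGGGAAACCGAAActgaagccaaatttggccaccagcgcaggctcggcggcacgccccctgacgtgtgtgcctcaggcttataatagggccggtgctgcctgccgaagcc
IFI27 chr14:94110586-94110735 (+ strand): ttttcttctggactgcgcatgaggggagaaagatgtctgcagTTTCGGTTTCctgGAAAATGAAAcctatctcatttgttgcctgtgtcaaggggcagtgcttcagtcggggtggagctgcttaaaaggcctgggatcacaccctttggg
IFI44 chr1:78649639-78649788 (+ strand): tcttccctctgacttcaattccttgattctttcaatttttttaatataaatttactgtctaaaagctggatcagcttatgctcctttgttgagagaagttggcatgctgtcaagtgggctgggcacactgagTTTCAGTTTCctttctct
FGA chr4:154590843-154590992 (− strand): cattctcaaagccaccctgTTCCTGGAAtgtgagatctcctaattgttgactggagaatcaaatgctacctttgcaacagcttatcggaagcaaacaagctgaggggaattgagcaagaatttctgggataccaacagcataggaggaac
GPX2 chr14:64942746-64942895 (− strand): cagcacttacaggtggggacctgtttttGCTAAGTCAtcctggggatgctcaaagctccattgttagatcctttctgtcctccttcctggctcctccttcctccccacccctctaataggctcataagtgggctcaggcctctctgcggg

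The ISRE letters were found in 33 of the 70 genes higher in replicate 1 alone that had a RefSeq promoter (47.1%), against 4.38% of 27305 genes with one. Of those 33, 19 were in the interferon list and 14 outside it. Among genes higher in both arrays the letters were found in 3 of 45, among those lower in both in 1 of 36, and among those lower in replicate 1 alone in 1 of 30. The STAT site letters were found in 8 of 45 genes higher in both arrays and 6 of 36 lower in both, against 9.38% of all genes. The largest share was that of genes higher in replicate 1 alone, 14 of 70. The antioxidant core was found in 11 of 45 genes higher in both arrays (24.4%) and 8 of 36 lower in both (22.2%), against 19.4% of the 9562 genes on the array with a promoter, so its share was near the background in both. Searches covered 250 bases before to 50 after each start on both strands. A match describes letters and is not a measured site.

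The arrays did not stand equally close to each other. Over all probe sets the SD of the difference between the PIAS3 arrays was 0.35, against 0.15 between the controls. Replicate 2 lay closer to STAT3 siRNA replicate 2 (SD 0.19) than to PIAS3 replicate 1. A total of 218 probe sets differed at least 2-fold between the PIAS3 arrays and 1 between the controls. In replicate 1 the poly-A spike-in probe sets, which report RNA added during labelling, had a median 1.41 above the control mean, and 24 of 24 lay above both controls. The corresponding median in replicate 2 was -0.13. The 18 hybridization control probe sets had medians of 0.48 in replicate 1 and -0.10 in replicate 2. In replicate 1, 18 of 18 lay above both controls. The 3′ minus 5′ difference of the ACTB probe sets, which grows as RNA shortens, was 0.43 and 0.28 in the PIAS3 arrays, with controls at 0.12 and 0.10. The part of these values in the results was not tested. Of 6 epithelial markers, the keratins KRT7, KRT8 and KRT18 read above 12 in all 4 arrays (KRT18 13.68 and 13.74 against 13.79 and 13.69), while KRT19 is among the genes lower in both PIAS3 arrays. EPCAM, a surface adhesion protein, read 6.36 and 6.78 against 7.24 and 7.22, and CDH1, given below, read higher. Of 9 measured leukocyte genes 2 lay above both controls in both PIAS3 arrays and 2 below, with mean levels of 5.36 and 5.23 against 5.18 and 5.19. Of 8 fibroblast genes none lay above both controls and 3 lay below, and of 8 endothelial genes 2 lay above and 1 below. Of 7 alveolar genes none lay above both controls and 2 lay below. Over all genes 22.4% lay above both controls in both PIAS3 arrays and 23.7% below. PTPRC, the pan-leukocyte surface phosphatase, read 3.94 and 3.93 against 3.93 and 3.85, near the highest absent-transcript control (3.93). CD14, a monocyte receptor, read 6.84 and 6.54 against 5.87 and 5.83 (0.84 ± 0.13, adjusted p = 0.0793).

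The targeted pathway was read first. PIAS3 (Entrez 10401) stood at 7.78 and 7.72 in the PIAS3 arrays, with controls at 7.70 and 7.71, a difference of 0.04 ± 0.11 (SE, n = 2 per group; adjusted p = 0.919). No source used here says whether its probes match the plasmid insert, and this value checks nothing about the transfection. STAT3 (Entrez 6774) stood at 10.18 and 9.70 against 10.50 and 10.43. Both PIAS3 arrays lay below both controls, with the difference, -0.53 ± 0.18, not past the threshold (adjusted p = 0.254), and STAT3 lay at 10.23 and 9.94 with the siRNA against it. Its other probe set gave -0.60 ± 0.15 (adjusted p = 0.145).

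Across 22215 probe sets, limma called 6 higher (0.027%) and 16 lower (0.072%) in the PIAS3 arrays at an adjusted p under 0.05. By gene this is 4 higher and 11 lower (0.125% of 11963), of which 13 were past 2-fold in both arrays. Without PIAS3 replicate 1, 1 of the 15 genes was called, and without either control array none was, while 15 of 15 were called without PIAS3 replicate 2 or either siRNA array. After quantile normalization again 2 of the 15 were called, with a filter on dim probe sets 2, and with the replicate number as a block 1. No empty-vector or transfection-only group was analysed here, so effects of PIAS3, of plasmid DNA and of transfection cannot be told apart.

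TFF1 (Entrez 7031), a trefoil peptide that mucosal epithelia secrete with mucus, was the most lowered of the called genes. It read 7.29 and 6.61 in the PIAS3 arrays, 10.08 and 10.04 in the controls and 7.16 and 7.12 with the siRNA. The 2 PIAS3 arrays sat far below both controls, and TFF1 fell 8.66-fold (-3.11 ± 0.21, adjusted p = 0.0202). In bulk RNA, fewer cells expressing a gene and less of its RNA per cell cannot be told apart. TMEM158, a membrane protein known as a Ras-induced gene, read 7.13 and 7.45 against 9.30 and 9.23 and fell 3.93-fold (-1.98 ± 0.16, adjusted p = 0.0361). CCL2, the chemokine that draws monocytes, read 6.65 and 6.39 against 8.16 and 8.21. No PIAS3 array came near a control, and the difference was 3.17-fold (-1.67 ± 0.17, adjusted p = 0.0484).

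The other lowered genes shared that adjusted p of 0.0484, and in each the PIAS3 arrays lay below both controls. PODXL, a sialomucin of the cell surface, read 9.02 and 9.43 against 10.78 and 10.82 (2.98-fold). TIPARP, an ADP-ribosyltransferase induced by the aryl hydrocarbon receptor, read 9.44 and 9.63 against 11.05 and 11.16 (2.96-fold). CCN2, the connective tissue growth factor and a target of YAP, read 9.02 and 9.20 against 10.30 and 10.18, a difference of -1.13 ± 0.12. These 3 encode a surface protein, an enzyme and a matrix-associated signal. CRISPLD2, a secreted protein, read 6.43 and 6.45 against 7.70 and 7.68. NAV3, a microtubule-associated protein, read 6.71 and 6.84 against 7.94 and 7.86, and its other probe sets read no higher than the array's absent-transcript controls (up to 3.93), so they could not show a difference. SAMD4A, an RNA-binding regulator of translation, read 7.28 and 7.52 against 8.52 and 8.45, while its other probe sets gave -0.16 to -0.25. For NAV3 and SAMD4A the call rests on 1 probe set. PRSS3 (7.14 and 7.26 against 8.55 and 8.49) and PRSS2 (6.39 and 6.45 against 7.38 and 7.44) are near-identical trypsinogens, whose probe sets may share signal, and which of them fell is uncertain.

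Among the called genes that rose, KCNJ16, an inwardly rectifying potassium channel, read 6.44 and 6.41 against 4.86 and 5.12 (2.7-fold, 1.43 ± 0.16, adjusted p = 0.0484). ACSM3, a mitochondrial enzyme that activates medium-chain fatty acids, read 7.43 and 7.42 against 6.32 and 6.16 (2.27-fold). Its second probe set was also called, with 1.29 ± 0.13. INSL4, an insulin-like peptide best known from placenta, read 8.85 and 8.84 against 7.69 and 7.77 (2.17-fold). In these 3 genes the PIAS3 arrays nearly coincided, at least 1 log2 above the control mean. Their siRNA arrays lay between or near the groups, at 5.01 and 5.38 for KCNJ16, 6.81 and 6.97 for ACSM3, and 8.01 and 8.32 for INSL4.

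**Figure D2:**
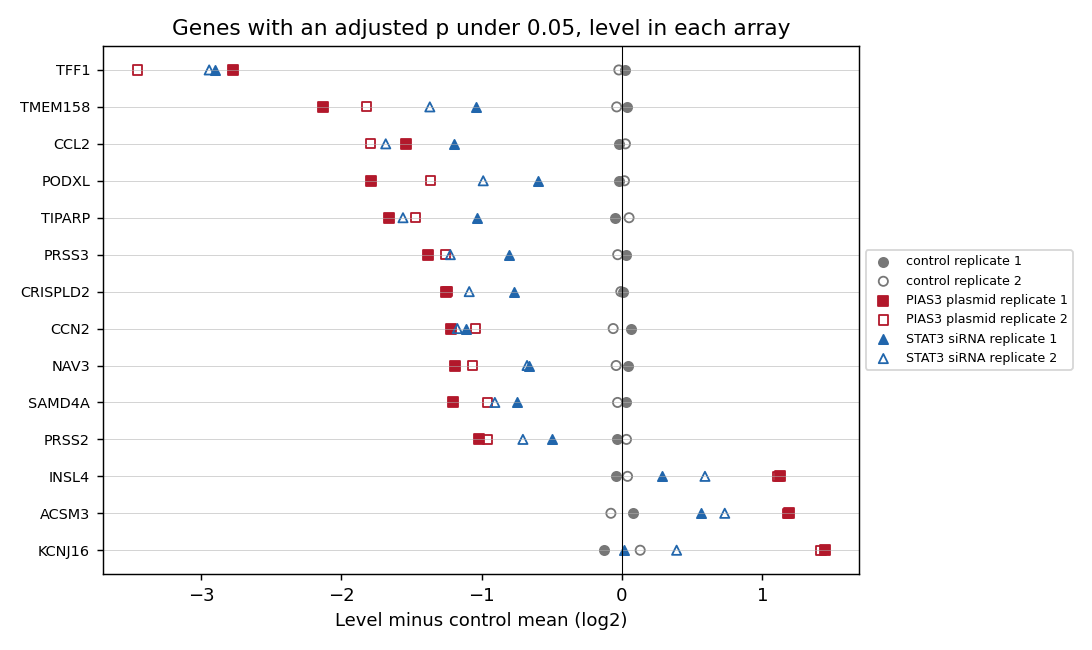
Levels minus the control mean (log2) of 14 of the 15 genes with an adjusted p under 0.05, 1 point per array. The control points sit close to 0 and the PIAS3 points lie together to one side, farthest for TFF1 at about 3 log2 units below.

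The largest upward differences present in both arrays did not pass the threshold. TM4SF20, a tetraspan membrane protein, read 9.28 and 8.46 in the PIAS3 arrays, with controls at 4.37 and 4.46. Both PIAS3 arrays stood far above, at a difference of 4.46 ± 0.81 (22.0-fold, adjusted p = 0.0915). Its siRNA arrays split, at 4.68 and 7.61. The 3 fibrinogen chains, clotting proteins made mainly by liver, were high together. FGG read 9.57 and 8.61 against 5.93 and 5.64 (3.31 ± 0.53, adjusted p = 0.0793). FGA read 9.29 and 8.02 against 5.63 and 5.90, and FGB 8.82 and 7.96 against 5.73 and 5.59. Replicate 1 was the higher array for each chain. FGL1, a secreted fibrinogen-like protein, read 9.70 and 8.94 against 7.18 and 7.11. CPS1, the enzyme that starts the urea cycle, read 9.74 and 9.38 against 6.61 and 6.40. S100P, a calcium-binding protein, read 10.90 and 9.57 against 6.94 and 6.83. The adjusted p was 0.0853 for FGL1, 0.104 for CPS1 and 0.109 for S100P. The limma fit pools the spread within all 3 groups. For CPS1 the siRNA arrays read 6.80 and 9.05, and such a split enters the error and adjusted p of a gene.

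Further genes higher in both arrays included transporters, enzymes and membrane proteins. TM4SF4, a relative of TM4SF20, read 10.30 and 10.40 against 8.33 and 8.32 (2.03 ± 0.37). ABCG2, a drug efflux transporter, read 9.19 and 9.18 against 7.16 and 7.37, and SPP1, the matrix phosphoprotein osteopontin, read 11.34 and 11.01 against 9.13 and 9.28. For TM4SF4 and ABCG2 the 2 PIAS3 arrays nearly coincided. CYP4F11, a fatty acid hydroxylase, read 6.58 and 6.70 against 4.30 and 4.70, and the tetraspanin TSPAN7 read 7.29 and 7.81 against 4.87 and 4.86. The siRNA arrays disagreed with each other in this category, with medians over its 63 genes of 0.12 and 1.16 above the control mean, against 1.50 and 1.36 for the PIAS3 arrays. Replicate 1 was the farther of the PIAS3 arrays in 46 of the 63. Other members, chosen after their values were seen, included PLA2G4A, the phospholipase that releases arachidonic acid (2.32 and 1.75 above the control mean), the receptor NOTCH3 (1.92 and 1.50), the lipid transporter ABCG1 (1.48 and 1.98) and the antimicrobial peptide DEFB1 (1.08 and 2.36).

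Genes lower in both arrays included matrix and mesenchymal products. SPARC, a collagen-binding matrix protein, read 6.48 and 7.05 against 9.95 and 10.14, a 9.76-fold difference that missed the threshold (-3.29 ± 0.77, adjusted p = 0.136). PDGFC, a platelet-derived growth factor, read 4.83 and 4.75 against 7.31 and 7.34, and IL32, a pro-inflammatory cytokine, 6.77 and 6.95 against 9.29 and 9.24. For all 3 genes the siRNA arrays split, with replicate 1 near the controls (9.90, 7.32 and 8.99) and replicate 2 near the PIAS3 arrays (7.05, 4.94 and 7.17). That split enters their errors, since the fit pools the spread of all groups. GLIPR1, a secreted CAP-family protein, was just outside the threshold, at 6.23 and 6.98 against 9.18 and 9.35 (-2.66 ± 0.32, adjusted p = 0.0513), and its second probe set was called (-1.96 ± 0.22, adjusted p = 0.0484). GREM1, which blocks bone morphogenetic proteins, read 4.27 and 4.77 against 6.79 and 7.18. The matrix glycoprotein TNC read 4.83 and 4.86 against 6.89 and 6.40, and the keratin KRT19 9.02 and 9.34 against 11.16 and 11.02. In EFNB2, an ephrin ligand (4.90 and 6.10 against 7.98 and 8.08), DCLK1, a microtubule-binding kinase (5.83 and 6.77 against 8.70 and 8.47), and PDLIM7, an actin-associated LIM protein (7.64 and 8.93 against 10.48 and 10.46), both arrays lay below both controls, replicate 1 by about 1 log2 more. The other probe set of EFNB2 gave the opposite order, at -1.11 in replicate 1 and -1.43 in replicate 2. Replicate 1 was the farther array in 42 of the 50 genes lower in both.

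**Figure D3:**
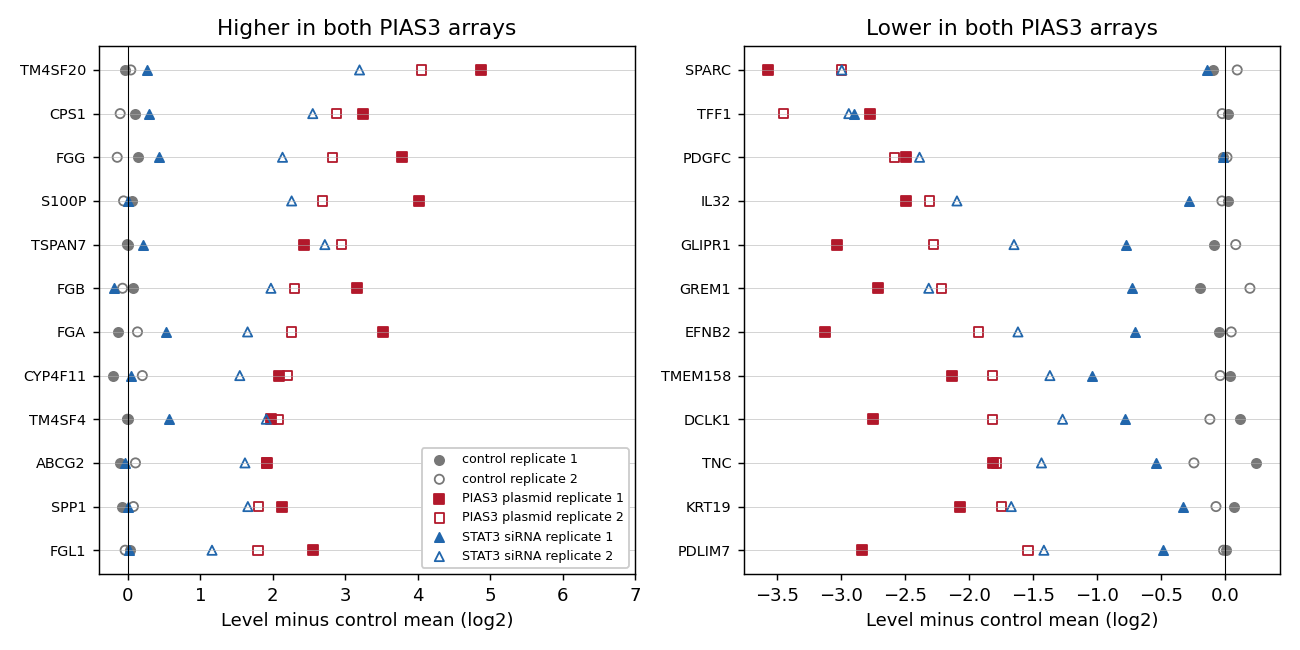
Levels in each array (log2, minus the control mean) of the 12 genes higher and the 12 lower in both PIAS3 arrays with the largest differences, ranked by the smaller of the 2 arrays' differences. The PIAS3 points of each gene lie at least 1 log2 from 0, and the siRNA points of SPARC, PDGFC and TM4SF20 lie apart from each other.

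Interferon-stimulated genes were high in replicate 1 alone. IFIT1, an antiviral protein that binds foreign RNA, read 12.36 in PIAS3 replicate 1 and 4.57 in replicate 2, against 4.18 and 4.32 in the controls and 4.36 and 5.21 with the siRNA. MX1, an antiviral GTPase, read 10.61 and 4.86 against 4.82 and 4.94. ISG15, a ubiquitin-like modifier, read 12.20 and 6.86 against 7.19 and 7.31. In each, replicate 1 stood at least 4.95 log2 above the control mean and replicate 2 lay within 0.5 log2 of it. Replicate 1 also stood far above the other arrays for IFI27 (10.86 and 5.39 against 5.17 and 5.45), IFITM1 (11.44 and 6.36 against 5.98 and 5.79), IFI44 (9.02 and 3.78 against 3.80 and 3.88) and TRIM22 (9.17 and 4.47 against 4.30 and 4.44). TNFSF10, the death ligand TRAIL and an interferon-inducible gene of the apoptosis lists, read 8.50 in replicate 1, 4.34 in replicate 2 and 4.10 and 3.94 in the controls.

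Of 52 interferon-stimulated genes, 46 were measured, and 37 of these were higher in replicate 1 alone, where 0.744% of all genes were. The list's median level was 9.59 in replicate 1, 5.68 in replicate 2 and 5.88 and 5.78 in the controls. It lay 2.59 above the control mean in replicate 1 and within 0.01 log2 of it in replicate 2, against a median over all genes of -0.01 and 0.00. None of the 46 passed an adjusted p of 0.05, and 6 had an unadjusted p under 0.05, all higher, where 7.13% of all genes did. OAS1, which makes the signal that activates RNase L, was the 1 gene of the list past 2-fold in both arrays, at 10.92 and 7.47 against 6.34 and 6.24 (2.90 ± 0.99, adjusted p = 0.259). It read 7.47 in siRNA replicate 2 as well. IRF9, a DNA-binding factor of the interferon response, read 11.44 and 8.46 against 7.94 and 7.90. The poly-A spike-in median given above, 1.41 above the control mean in replicate 1, was raised in the same array as these genes. Its part was not tested.

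**Figure D4:**
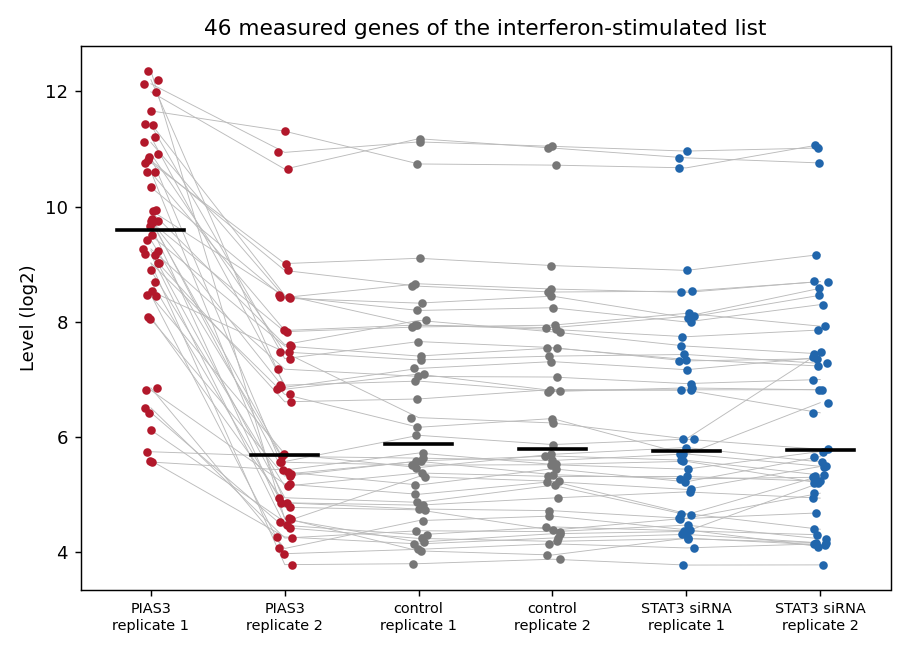
Levels (log2) of the 46 measured interferon-stimulated genes in each of the 6 arrays, with a line joining the points of a gene and a bar at each array's median. PIAS3 replicate 1 has a median of 9.59, and the other arrays have medians between 5.68 and 5.88.

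Sensors of foreign nucleic acid behaved alike in part. RIGI, a cytosolic RNA sensor, read 9.24 and 4.95 against 4.87 and 5.16, and IFIH1, the sensor MDA5, 9.67 and 4.59 against 4.02 and 3.95. IRF7, which drives interferon transcription, read 11.42 and 7.36 against 7.66 and 7.55. RIGI, IFIH1 and IRF7 also belong to the interferon list and were counted there. Of the 21 measured genes of sensing and interferon production, 4 were higher in replicate 1 alone, where 0.744% of all genes were. IFIH1 was not among them, since replicate 2 lay 0.60 above the control mean. The medians of this list were near 0, at 0.08 in replicate 1 and -0.05 in replicate 2. IFNA2, an interferon gene itself, read 3.40 and 3.30 against 3.37 and 3.57, all below the highest absent-transcript control (3.93), so these values do not show whether it differed. Antigen presentation genes differed less between the arrays than the interferon list. Their median lay 0.37 above the control mean in replicate 1 and at -0.18 in replicate 2. TAP1, the peptide transporter, read 9.48 and 8.13 against 8.23 and 8.11, and PSMB9, an immunoproteasome subunit, 9.15 and 7.93 against 7.86 and 7.89. Neither list had a gene past an adjusted p of 0.05, and for antigen presentation 0 of 18 had an unadjusted p under 0.05.

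Outside the interferon list, 52 genes were higher in replicate 1 alone. The list does not hold every interferon-inducible gene, and IFITM1 and TNFSF10, given above, were among the 52. The ISRE letters were found in 14 of the genes outside the list. Whether the 52 belong to the same response as the list was not tested. Examples chosen after their values were seen are the copper-binding plasma protein CP (7.61 and 5.40 against 5.02 and 5.11), the gel-forming mucin MUC5AC (9.13 and 7.25 against 7.01 and 6.90) and the chemokine CCL5 (7.09 and 5.03 against 5.10 and 4.95). The 36 genes lower in replicate 1 alone had smaller differences, with a median of -1.11. The deiodinase DIO2 read 6.42 and 7.60 against 7.84 and 7.88, WDR76 read 6.12 and 7.26 against 7.40 and 7.52, and the actin bundler FSCN1 8.88 and 9.69 against 10.14 and 10.21. DENND1A read 5.02 and 6.20 against 6.40 and 6.10, and SSBP2 6.09 and 6.84 against 7.19 and 7.39. Replicate 2 deviated alone for few genes. PHGDH, the first enzyme of serine synthesis, read 8.97 in replicate 1 and 10.04 in replicate 2, against 8.82 and 8.74. GLDC, the glycine decarboxylase, read 7.62 and 8.38 against 7.45 and 7.18, and the carbonic anhydrase CA2 5.90 and 6.82 against 5.48 and 5.54. ANTXR1, MAF, SULT2B1 and MATN3 completed the 7. The 2 lower genes were early response factors, FOS (9.44 in replicate 2 against 10.49 and 10.58) and KLF6 (8.56 against 9.72 and 9.66). Both were also low in the siRNA arrays, FOS at 9.22 and 9.96 and KLF6 at 8.82 and 8.83.

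Genes of the STAT3 and SUMO pathways differed little as lists. Of 26 measured STAT3 and PIAS pathway genes, 2 were higher and 4 lower at an unadjusted p under 0.05, where 7.13% and 7.44% of all genes were, and none passed after adjustment. STAT4, a relative of STAT3, read 8.20 and 8.33 against 7.57 and 7.74 (0.61 ± 0.12, adjusted p = 0.0973), and SOCS2, a feedback inhibitor of cytokine receptors, gave -0.47 ± 0.13. Of 11 SUMO genes, none was higher and 2 were lower, with SUMO3 at 9.92 and 10.47 against 10.62 and 10.75. Of 31 STAT3 targets, 5 were higher and 4 lower, with list medians of 0.11 and -0.08. BCL6, a transcriptional repressor, read 9.08 and 8.11 against 7.26 and 7.16 (1.38 ± 0.29, adjusted p = 0.11), and CEBPB, a transcription factor of the acute phase response, 12.21 and 11.66 against 11.07 and 11.04 (0.88 ± 0.17, adjusted p = 0.104). STAT3 targets thus stood on both sides of the control. Among 30 acute phase and complement genes, 8 were higher and 2 lower, including the fibrinogens. The complement proteases C1R (9.99 and 8.57 against 8.01 and 7.85) and C1S (9.72 and 8.29 against 7.67 and 7.55) were higher mainly in replicate 1, and CD59, which blocks complement lysis, read 10.30 and 10.73 against 11.59 and 11.77 (-1.17 ± 0.19, adjusted p = 0.0793).

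The apoptosis lists, which the study's question concerns, held no gene with an adjusted p under 0.05. Over all genes, 7.13% were higher and 7.44% lower at an unadjusted p under 0.05. Of 13 pro-apoptotic BCL2 family genes, 1 was higher and 1 lower at an unadjusted p under 0.05, and of 16 anti-apoptotic genes none was higher and 2 were lower. BAX, which opens the mitochondrial outer membrane, gave a difference of -0.34 ± 0.15, and BCL2A1, a protective relative of BCL2, -0.81 ± 0.25. PEA15, an inhibitor of death receptor signalling, read 9.36 and 9.64 against 10.40 and 10.41 (-0.90 ± 0.15, adjusted p = 0.0793). Of 16 caspase and apoptosome genes 2 were higher and none lower. CASP8, the initiator caspase of death receptors, read 8.80 and 8.52 against 8.04 and 8.12 (0.58 ± 0.18, adjusted p = 0.219), and CASP9, the initiator of the mitochondrial route, gave 0.32 ± 0.11. Of 17 death receptor genes 1 was higher and 2 lower, with TNFRSF21, a death receptor, at -0.62 ± 0.17. Of 25 p53 targets 2 were higher and 2 lower, with list medians of 0.00 and 0.00. GADD45A, a growth arrest gene, gave -0.77 ± 0.14 (adjusted p = 0.0973), and PLK2, a stress-responsive kinase, -0.52 ± 0.11.

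Cytoskeletal genes were low in both arrays. Of 23 measured actin and SRF target genes, 20 lay below both controls in both PIAS3 arrays, where 23.7% of all genes did, and 17 were lower at an unadjusted p under 0.05, where 7.44% were. None passed after adjustment. The list median was -0.65 in replicate 1 and -0.38 in replicate 2, and stayed below 0 under each scaling tried, while the siRNA arrays gave -0.23 and -0.50. MYH9, the heavy chain of nonmuscle myosin, read 9.01 and 9.04 against 9.83 and 9.77 (-0.77 ± 0.13, adjusted p = 0.0793). VCL, the focal adhesion protein vinculin, read 10.73 and 11.12 against 11.83 and 11.78, and ZYX, the adhesion protein zyxin, 9.62 and 9.89 against 10.45 and 10.48. TPM4, a tropomyosin, read 9.25 and 9.71 against 10.40 and 10.52. For all 4 genes the groups did not overlap.

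Of 22 YAP and TEAD targets none was higher and 7 were lower at an unadjusted p under 0.05, where 7.13% and 7.44% of all genes were. Besides CCN2, the tissue factor gene F3 read 6.41 and 6.73 against 7.91 and 8.10 (-1.43 ± 0.18, adjusted p = 0.0554), and CCN1, another matrix-associated signal, 10.41 and 10.87 against 11.87 and 12.00 (-1.29 ± 0.20, adjusted p = 0.0793). Of 40 matrix genes, 2 were higher and 17 lower. COL4A1, a basement membrane collagen, read 9.49 and 9.67 against 10.76 and 10.68 (-1.14 ± 0.18, adjusted p = 0.0793), and COL5A1, a fibrillar collagen, 8.72 and 9.19 against 10.82 and 10.58. NID2, which links laminin and collagen, went the other way, at 6.94 and 6.52 against 5.33 and 4.91. Of 31 TGF-beta and mesenchymal genes, 6 were higher and 11 lower. SNAI2, a repressor of epithelial genes, read 5.18 and 5.51 against 6.83 and 7.09, and CDH2, N-cadherin, 8.86 and 9.31 against 10.31 and 10.25, while VIM, the intermediate filament vimentin, read 13.20 and 13.19 against 13.42 and 13.48. ID1, a repressor of helix-loop-helix factors, was higher, at 12.20 and 11.32 against 10.10 and 10.04. CDH1, E-cadherin of epithelial junctions, read 9.54 and 9.14 against 8.31 and 8.19 (1.09 ± 0.16, adjusted p = 0.0761). N-cadherin thus read lower and E-cadherin higher in both PIAS3 arrays, neither past the adjusted threshold. E-cadherin does not stand for epithelial genes in general. Of 28 epithelial junction and keratin genes, 6 lay above both controls in both arrays and 11 below. Over all genes 22.4% and 23.7% did. EPCAM and KRT19, given above, also read lower.

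Genes induced by EGF through ERK were mixed. Of 33 measured, 2 were higher and 8 lower at an unadjusted p under 0.05, where 7.13% and 7.44% of all genes were, with medians of 0.08 in replicate 1 and -0.23 in replicate 2. EGR3, an immediate early factor, read 3.72 and 3.49 against 4.50 and 4.48, with the siRNA arrays at 3.53 and 3.40. Its PIAS3 and siRNA values are no higher than the highest absent-transcript control (3.93), so the fitted difference, -0.88 ± 0.12 (adjusted p = 0.067), is taken against background. HBEGF, a ligand of the EGF receptor, read 6.68 and 6.42 against 7.52 and 7.41, and SPRY2, a feedback inhibitor, 8.28 and 8.16 against 8.96 and 8.96. EGFR itself read 10.00 and 9.76 against 10.42 and 10.56 (-0.61 ± 0.12, adjusted p = 0.106). HBEGF, SPRY2 and EGFR thus lay below both controls in both arrays. Of the 33 listed genes, 11 lay below and 7 above, where 23.7% and 22.4% of all genes did. Since the titles name EGF for the control only, EGF and transfection cannot be told apart for these genes. Of 24 NF-kB targets 2 were higher and 2 lower, with CCL2 among the lower, and PTGS2, the inducible cyclooxygenase, read 8.82 and 7.58 against 6.47 and 6.25 (1.83 ± 0.55, adjusted p = 0.209).

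Antioxidant genes were high in both arrays. Of 34 measured NRF2 targets, 27 lay above both controls in both PIAS3 arrays, where 22.4% of all genes did. At an unadjusted p under 0.05, 15 were higher, where 7.13% of all genes were, and none lower. None passed after adjustment. The list medians were 0.29 and 0.33, above 0 under each scaling tried, and 0.00 and 0.28 in the siRNA arrays. GPX2, a glutathione peroxidase, read 11.98 and 11.12 against 9.78 and 9.68 (1.82 ± 0.35, adjusted p = 0.0973). HMOX1, which breaks down haem, read 10.98 and 11.07 against 9.60 and 9.62 (1.42 ± 0.31, adjusted p = 0.122), and GCLC, the rate-limiting enzyme of glutathione synthesis, 10.69 and 10.17 against 9.39 and 9.60. Of 10 genes of the aryl hydrocarbon receptor battery, TIPARP fell, ALDH3A1, an aldehyde dehydrogenase, read 13.04 and 12.62 against 11.61 and 11.55, and CYP1A1, the best known target, 5.56 and 5.23 against 5.54 and 5.28. Battery genes therefore lay above, below and level with the controls.

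Cell cycle genes differed by phase and by array. Of 46 measured G1/S and replication genes, 28 lay below both controls in both arrays, where 23.7% of all genes did. At an unadjusted p under 0.05, 14 were lower, where 7.44% of all genes were, and none higher, and none passed after adjustment. Their median was -0.58 in replicate 1 and -0.08 in replicate 2, so the shift lay mostly in 1 array. CCNE2, a cyclin of S phase entry, read 6.51 and 7.60 against 8.18 and 8.35, and CDC6, which loads the replicative helicase, 8.29 and 9.02 against 9.27 and 9.39. Of 46 mitotic genes, 18 lay above both controls in both arrays and 2 below, where 22.4% and 23.7% of all genes did. At an unadjusted p under 0.05, 10 were higher, where 7.13% of all genes were. Their median was 0.25 in replicate 2 and 0.01 in replicate 1, where its sign turned under other scalings. PTTG1, the securin that guards sister chromatids, read 11.63 and 12.07 against 11.30 and 11.32, and CENPE, a kinetochore motor, 8.23 and 7.86 against 7.43 and 7.33. CCND3, a D-type cyclin, read 11.92 and 12.10 against 10.99 and 10.96 (1.03 ± 0.20, adjusted p = 0.0973), the 2 arrays close together and well above the controls.

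**Figure D5:**
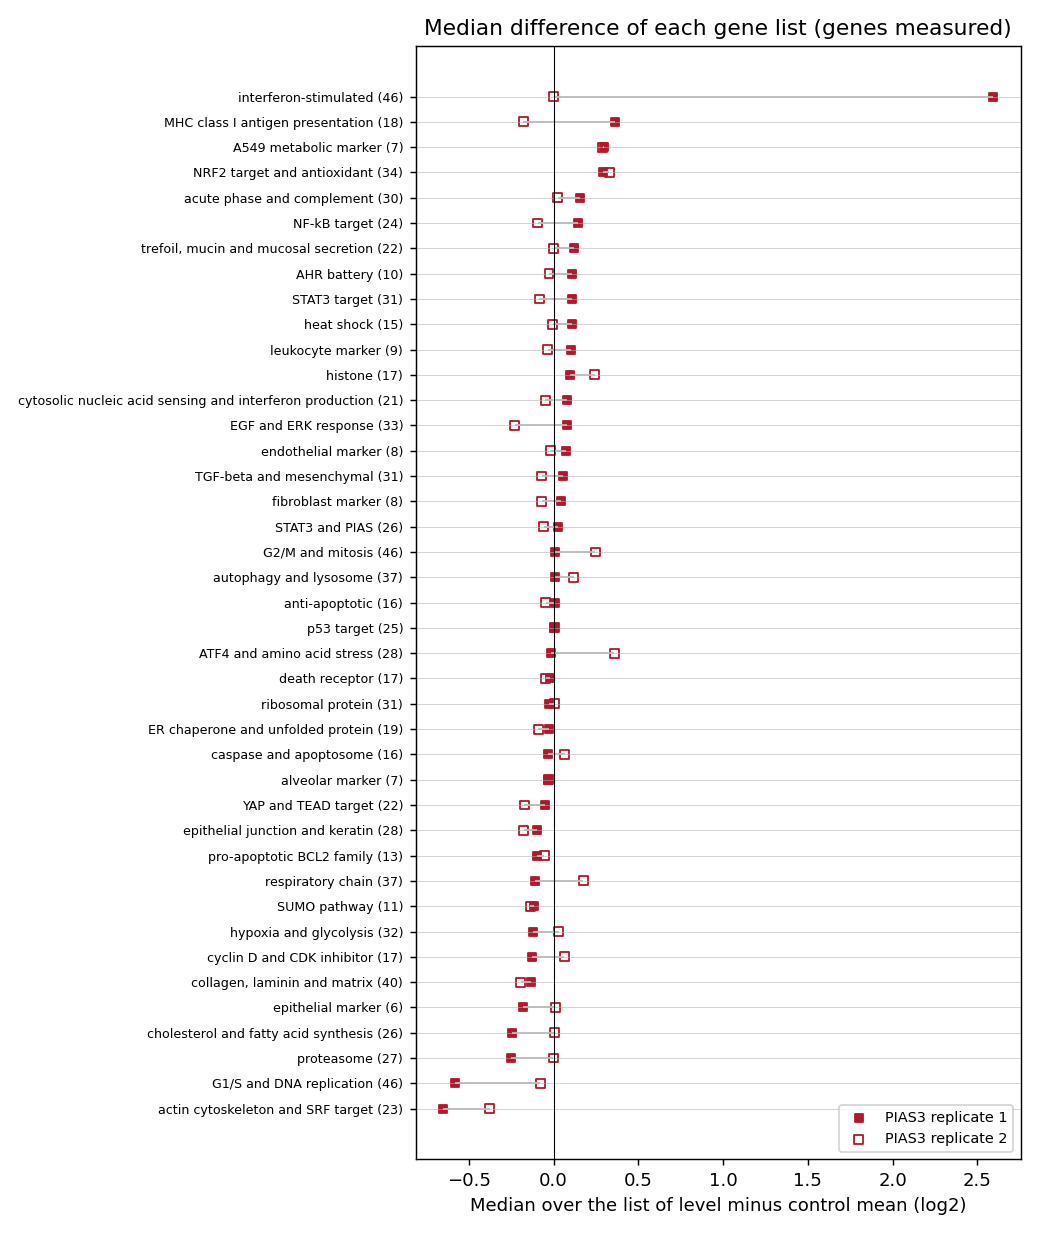
Median over each gene list of the level minus the control mean (log2), 1 filled point for PIAS3 replicate 1 and 1 open point for replicate 2, with the number of genes measured. The interferon list stands at 2.59 in replicate 1 and near 0 in replicate 2, the actin list lies below 0 in both PIAS3 arrays (-0.65 and -0.38) and the NRF2 list above it (0.29 and 0.33), while medians near 0 can turn sign under other scalings.

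Other mucosal secretion genes lay on both sides of the control. AGR2, a chaperone of mucin folding, read 12.42 and 11.46 against 9.98 and 10.08 (1.91 ± 0.39, adjusted p = 0.108), and MUC5B, an airway mucin, 8.74 and 7.55 against 6.83 and 6.79. SLPI, a protease inhibitor of airway fluid, read 9.61 and 8.86 against 7.98 and 7.97. In these 3, both PIAS3 arrays were above both controls and replicate 1 was the higher. GATA6, a transcription factor of lung and gut epithelium, was below them at 5.68 and 6.14 against 7.01 and 7.13 (-1.16 ± 0.19, adjusted p = 0.0793). Of the list's 22 measured genes, 5 were higher and 2 lower at an unadjusted p under 0.05. Over all genes 7.13% and 7.44% were.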

How the data were processed

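The values deposited by the authors are log2 levels of probe sets on 6 Affymetrix arrays in 3 groups of 2, grouped by the sample titles. RMA is named, without a version, in the submitters' processing notes. That method subtracts background, makes arrays alike and summarises probes, which compresses differences of dim probe sets. Array annotation version, scanner output and hybridization dates were not used here, and array batches were not tested. Of 22277 rows, 62 array controls were left out. Symbols were taken from the supplied platform annotation (19064 probe sets had 1 symbol, 1043 several, 2108 none; 19052 were matched by gene identifier, 0 updated). Array medians were 6.63 to 6.72.

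All 6 arrays were fitted with 1 mean per group (limma 3.58.1, R 4.3.3, lmFit and eBayes, two-sided, 3 residual and 4.27 prior degrees of freedom). P-values were adjusted by Benjamini-Hochberg over 22215 probe sets, with a threshold of 0.05, and errors are the fit's standard errors. The fit was tested on simulated data. Whether a group's arrays stem from separate cultures is not stated in the labels, and p-values then reflect only the spread among these arrays, which can be technical.

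The members, gene lists and tests were chosen with earlier results of these data known. Named genes were STAT3 and PIAS3, up to 12 called genes per direction, up to 12 per direction past 2-fold in both arrays, up to 8 higher and 5 lower in 1 array alone, and up to 4 per list by smallest p, with list members that show what a list holds. For 1 called gene no values are reported here. The alternatives tried were quantile normalization again, a replicate block, median centring, cyclic loess, a filter on dim probe sets, trended or robust eBayes, the 2 groups alone, array weights, an adjusted p of 0.10, averaging the probe sets of a gene, and dropping each array in turn. Figures used matplotlib 3.10.9.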

Additional observations from a re-analysis of the deposited data

Results flagged for a closer look

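The probe sets for the poly-A spike-ins, RNAs added to the sample during labelling and left out of the tests, gave a signal in PIAS3 replicate 1 that stood above the control arrays, with a median 1.41 log2 units above the control mean. The hybridization controls were also raised in that array, with a median 0.48 above the control mean.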

How the results depend on the processing

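At an adjusted p under 0.05, limma called 6 higher and 16 lower probe sets. The counts were 0 and 2 after quantile normalization again, 10 and 29 with cyclic loess, 0 and 2 with the 40th percentile filter on dim probe sets, 15 and 25 with a robust fit, and 130 and 132 with the PIAS3 and control arrays alone. They were 57 and 86 with array weights and 115 and 139 at an adjusted p under 0.10. Leaving out 1 array gave 0 to 541 higher and 0 to 691 lower probe sets, with the extremes without a control array (0 and 0) and without PIAS3 replicate 2 (541 and 691). Where 1 array was left out, its partner was taken to vary as the other groups do. Over probe sets, the deviation of replicate 1 from its group mean correlated at 0.092 between the PIAS3 and control groups. That value alone cannot show whether same-numbered arrays were handled together. With the replicate number as a block, 1 higher and 1 lower probe set were called, and 1 of the 15 genes was kept.

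By probe set, replicate 1 alone held 63 lower, and 31 with cyclic loess. Replicate 2 alone held 8 higher, 4 with the dim filter and 5 to 8 with 1 array left out, and 5 lower, 8 after quantile normalization and 8 with cyclic loess. For 39 of the named genes, 620 log2 differences were taken under the alternatives. Of these 441 were the same, 87 weaker and 83 stronger, 9 counted as moved, and 0 were reversed. Many of these genes were chosen for differences past 2-fold in both arrays, which left little room for a reversal. With 2 arrays per group the smallest exact two-sided permutation p is 0.333, so the number of arrays limits what can be called.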

Other observations

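In further lists no gene passed an adjusted p of 0.05, and their counts at an unadjusted p under 0.05 can be set beside 7.13% higher and 7.44% lower over all genes. Of 37 measured autophagy and lysosome genes, 11 were higher and 2 lower at an unadjusted p under 0.05. ULK1, the kinase that starts autophagy, read 8.83 and 8.60 in the PIAS3 arrays against 7.99 and 7.86 (0.79 ± 0.14, limma adjusted p = 0.0853), and the lysosomal protease CTSL read 12.02 and 11.30 against 10.74 and 10.68. Of 17 histone genes, 6 were higher and none lower, with H2AC6 at 9.44 and 9.09 against 8.35 and 8.47. Of 28 ATF4 and amino acid stress genes, 8 were higher and 2 lower. CTH, which makes cysteine from cystathionine, read 5.78 and 6.28 against 4.72 and 5.07, and STC2, a secreted stress glycoprotein, 7.94 and 7.93 against 8.71 and 8.60.

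Of 37 respiratory chain genes, 37 were above the mean of the controls in replicate 2 and 10 in replicate 1, with medians of 0.18 and -0.11. The replicate 1 median was above 0 with cyclic loess (0.04) and below it with quantile normalization again and median centring. Of 27 proteasome genes 13 lay above the control mean in replicate 2 and 1 in replicate 1, with 0 of 27 at an unadjusted p under 0.05. Of 26 cholesterol and fatty acid synthesis genes, 2 were higher and 4 lower at an unadjusted p under 0.05, with medians of -0.24 and 0.00. In both arrays 3 lay above and 9 below both controls, where 22.4% and 23.7% of all genes did. The 2 higher ones were SCD and SREBF1. SCD, the desaturase of fatty acid synthesis, read 11.71 and 11.54 against 10.80 and 10.69, and SREBF1, the transcription factor that controls it, 9.34 and 9.38 against 8.77 and 8.58. Of the 7 measured A549 metabolic markers, 7 lay above both controls in both arrays, where 22.4% of all genes did.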
